A study of Mus musculus with 2 samples.

Results

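The cells described here are the single-hormone β-cells of the Wild-type islet library, 468 of 755 cells that passed the barcode filter and of 855 Wild-type barcodes in all. The whole series held 1978 barcodes. A cell was selected on its measured hormone transcripts: at least 30% of its unique molecular identifiers (UMIs, counts of captured transcript molecules) had to come from Ins1 and Ins2, with under 4% from Gcg, under 0.3% from Sst and under 1% from Ppy. The cell had to hold at least 1000 UMIs with at most 20% of them from mitochondrially encoded genes. These 468 cells were 62.0% of the filtered Wild-type cells (95% Clopper-Pearson interval 58.4 to 65.5, which covers counting error only). Because insulin transcripts chose the cells, the level of insulin is a description and nothing rests on it.

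Islets came from male C57Bl6 mice, 12 weeks of age, and were measured by droplet single-cell RNA-seq as 1 Wild-type and 1 Tg7 library. In Tg7 mice the β-cells carry extra miR-7a2, a microRNA, and the Wild-type animals were littermates without it. According to the study's methods, the mice of both groups carried a Cre recombinase under a rat insulin promoter and a Cre-dependent tdTomato reporter, so that the Wild-type cells are not free of transgenes. The number of mice behind each library is not stated in those sources. With 1 library per group and cells that are not replicates, no test was possible, and every interval below is a 95% interval of the counting error alone.

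β-cells are the insulin-secreting cells of the islet. Glucose enters the mouse β-cell through the transporter encoded by Slc2a2 and is metabolised, and the ATP made from it closes potassium channels, which opens calcium channels and triggers the exocytosis of insulin granules. Transcription factors such as Pdx1, Nkx6-1, Neurod1 and Mafa keep insulin and the glucose-sensing genes expressed. Proinsulin is folded in the endoplasmic reticulum (ER), which makes ER chaperones a large part of the work of these cells, and mature β-cells keep silent a set of widely used metabolic genes that are termed disallowed.

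The upstream sequences of 3 genes are shown because they encode an insulin, the peptide co-released with it and a marker of mature β-cells. Each is the 250 bases before the annotated start in RefSeq, build GRCm38.p6, which shares its coordinates with the mm10 build of the counts. Capitals mark TAATG, a core bound by homeodomain factors such as Pdx1, CATCTG, an E-box form bound by Neurod1, and TCAGC, a part of the Maf recognition element, each on either strand. The first is upstream of the insulin gene Ins1 (chr19:52264047-52264296, plus strand), the second of Iapp, which encodes the granule peptide amylin (chr6:142298175-142298424, plus strand), and the third of Ucn3, which encodes the peptide urocortin 3 (chr13:3945350-3945599, minus strand).
Ins1: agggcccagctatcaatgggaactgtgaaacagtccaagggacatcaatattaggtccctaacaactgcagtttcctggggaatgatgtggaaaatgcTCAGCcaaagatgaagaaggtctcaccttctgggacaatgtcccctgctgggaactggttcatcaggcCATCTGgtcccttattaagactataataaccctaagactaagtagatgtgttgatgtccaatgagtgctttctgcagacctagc
Iapp: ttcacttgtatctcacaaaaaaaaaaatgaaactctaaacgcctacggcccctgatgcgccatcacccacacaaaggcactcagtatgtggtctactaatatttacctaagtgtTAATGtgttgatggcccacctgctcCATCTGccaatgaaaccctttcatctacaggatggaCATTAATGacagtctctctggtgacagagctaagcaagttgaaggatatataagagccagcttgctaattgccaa
Ucn3: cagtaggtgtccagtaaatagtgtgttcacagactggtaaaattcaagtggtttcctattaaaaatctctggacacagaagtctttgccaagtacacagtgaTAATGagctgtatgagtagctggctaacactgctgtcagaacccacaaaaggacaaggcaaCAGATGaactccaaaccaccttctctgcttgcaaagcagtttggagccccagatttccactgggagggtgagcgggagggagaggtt
Upstream of Ins1 there were 1 CATCTG and 1 TCAGC and no TAATG. Upstream of Iapp there were 3 TAATG matches, of which a pair on opposite strands overlap, and 1 CATCTG. Ucn3 had 1 TAATG and 1 CATCTG. Among 32851 RefSeq promoters, 23.9% held TAATG, 14.4% held CATCTG and 46.8% held TCAGC in the same 250 bases, so that each match is a description and not a site. Slc2a2 had 3 TCAGC matches and neither of the others, and Sytl4 had none of these motifs.

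The Wild-type library held 30829078 UMIs, of which the 468 β-cells took 81.0%, and the libraries shared 0 cell barcodes. A β-cell held a median of 49853 UMIs, with a range of 1238 to 151184. Of cells that failed by a single hormone rule, 47 fell short of insulin, 21 exceeded Sst, 4 exceeded Gcg and 1 exceeded Ppy. The lowest insulin share inside the selection was 30.8% and the highest outside it 27.3%. The highest Sst share inside was 0.207% and the lowest outside 0.366%. For Gcg the values were 3.35% and 4.89%, and for Ppy 0.858% and 1.23%.

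Hormone transcripts took 67.8% of all UMIs of the β-cells. Ins2 (chr7:142678656-142679726) gave 43.8%, Ins1 (chr19:52264297-52265015) 19.2% and Iapp (chr6:142298425-142303820) 4.79%. In single cells the insulin share ran from 30.8% to 75.9% with a median of 64.2%, and between the 5th and 95th percentiles from 47.3% to 72.0%. Ins1 and Ins2 are close paralogs, and no source says how reads common to both were assigned, so the split between them is uncertain. Because the hormones take a large part of all UMIs that differs between cells, levels of other genes are given per 10000 non-hormone UMIs. These are the UMIs without those of Ins1, Ins2, Iapp, Gcg, Sst, Ppy and Pyy. A β-cell held a median of 14583 such non-hormone UMIs, with a 5th percentile of 9756 and a 95th percentile of 29669.

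The non-hormone UMIs per cell fell into a dense and a broad group. There were 194 cells between 10000 and 14000, 18 cells between 18000 and 20000 and 26 to 30 cells in each step of 2000 from 20000 to 28000. Insulin share and non-hormone UMIs had a Spearman rho of -0.33 across the 468 cells, and insulin share and mitochondrial percentage a rho of -0.73. Both pairs share a denominator or a part of it. The median mitochondrial percentage was 3.69% and the highest 15.7%. Mitochondrial percentage and non-hormone UMIs had a rho of 0.28.

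**Figure D1:**
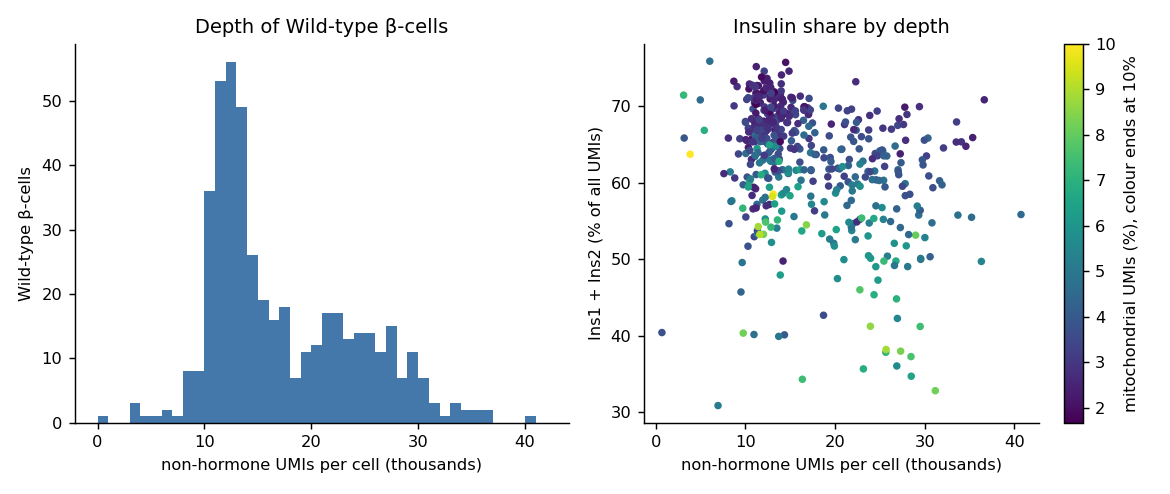
Left, the number of Wild-type β-cells by non-hormone UMIs per cell, on an axis in units of 1000. Right, the share of Ins1 and Ins2 among all UMIs (in percent) against the non-hormone UMIs, 1 point per cell, coloured by mitochondrial percentage with the colour ending at 10%. The depth has a dense group between 10000 and 14000 UMIs and a broad one above 20000, and cells of high mitochondrial percentage lie low on the insulin axis.

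The label held against markers that the rule did not use. Slc2a2, Ucn3 and Mafa, of the fixed markers, had UMIs in 97.0%, 97.4% and 94.0% of the cells at full depth. The tdTomato reporter had a UMI in 53.2% of β-cells at a level of 0.474 (0.427 to 0.524), against 0.0158 in α-cells, and after thinning every cell to 2000 non-hormone UMIs in 10.1% of 467 β-cells, against 0.763% of 131 α-cells. Markers of other tissues were close to 0. Of 8 endothelial markers 4 had no UMI and the other 4 had 31 UMIs over all β-cells, at most 2 in any cell. Of 7 mesenchymal markers 5 had none, and the 11 measured acinar markers had 36 UMIs, of which 33 lay in 1 cell.

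High counts of other islet hormones lay in few cells, while low counts were common. Gcg, the α-cell hormone glucagon, had UMIs in 92.9% of the β-cells with a median of 2 per cell, Ppy in 46.8%, Pyy in 28.8% and Sst in 103 of the 468 cells. For Gcg the 5 highest cells held 78.8% of its 6372 UMIs. For Pyy the same share was 80.3% of 1790 UMIs, for Sst 71.2% of 406 and for Ppy 65.4% of 1407. Npy was found in 8 cells only, with 168 UMIs. Among the macrophage markers, 1 cell held 80 UMIs of the 9 markers other than C1qa, and no other cell held more than 1. C1qa itself had 556 UMIs, spread over 56.0% of the β-cells, whereas C1qb and C1qc, which encode the partner chains of the same complement protein, had 2 UMIs each. Krt7, listed here as a ductal marker, was found in 92.7% of the β-cells at 2.16 and in α-cells at 1.66.

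Mafa, Ucn3 and Sytl4 are linked to the maturity and secretion of β-cells. Mafa (ENSMUSG00000047591, chr15:75745501-75748321) encodes a transcription factor that activates the insulin gene. Its level was 5.55 (5.38 to 5.71), with 0 UMIs at the 5th percentile of the cells, a median of 7 and 24 at the 95th percentile. Ucn3 (ENSMUSG00000044988, chr13:3940688-3945349) encodes a peptide co-released with insulin. Its level was 7.36 (7.17 to 7.55), with 2, 11 and 29 UMIs at the same percentiles. Sytl4 (ENSMUSG00000031255, chrX:133936385-133981821) encodes granuphilin, which docks insulin granules at the plasma membrane, and its level was 2.58 (2.47 to 2.69) with 0, 4 and 11 UMIs. Slc2a2 (ENSMUSG00000027690, chr3:28697903-28728361) had a level of 5.70 (5.54 to 5.87) with 1, 8 and 23.7 UMIs. The highest single cell held 38 UMIs of Mafa, 41 of Ucn3, 22 of Sytl4 and 36 of Slc2a2.

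Part of this range is counting error, so the spread between cells is given as an extra-Poisson coefficient of variation (CV), the CV that remains once the counting error expected at each cell's depth has been subtracted. Over 3153 genes with at least 1 UMI per cell on average, the median extra CV was 0.222, the 95th percentile 0.512, and 413 genes had an estimate of 0 or below. Mafa had 0.51, above 94.9% of these genes. Slc2a2 had 0.45, Sytl4 0.37 and Ucn3 0.36, above 92.5%, 85.9% and 83.6% of the genes. Within the cells at or above the median depth the values were 0.44 for Mafa, 0.33 for Sytl4 and 0.30 for Ucn3.

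The share of cells with a UMI depends on depth. After thinning to 2000 non-hormone UMIs, Mafa was found in 57.2% (52.5 to 61.7) of 467 β-cells, against 94.0% before thinning. Ucn3 was found in 71.7% (67.4 to 75.8), Slc2a2 in 61.5% (56.9 to 65.9) and Sytl4 in 38.8% (34.3 to 43.3). Each share is from a single random draw, and its interval leaves out the variation between draws. In the same thinned library, Mafa, Ucn3, Slc2a2 and Sytl4 were each in 0 of 22 endothelial cells and 0 of 8 macrophages, which lack these genes. By the limit of 3 counts, 0 of 22 allows a share of up to 13.6%, and by the Clopper-Pearson interval up to 15.4%. Before thinning, Mafa had a UMI in 8.70% of the endothelial cells, Sytl4 in 4.35% and both Ucn3 and Slc2a2 in none. Median depth before thinning was 14583 non-hormone UMIs in β-cells, 8643 in endothelial cells and 7475 in macrophages.

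**Figure D2:**
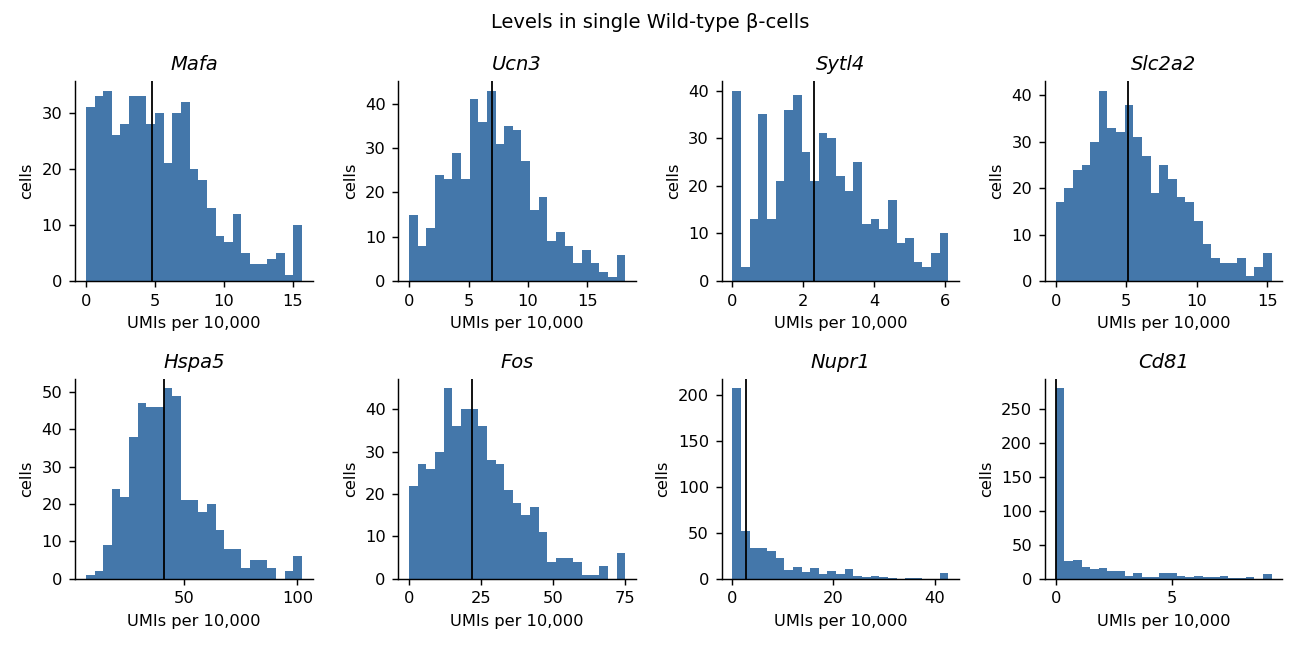
Number of Wild-type β-cells by level of 8 genes, in UMIs per 10000 non-hormone UMIs, with the median as a black line and levels above the 99th percentile drawn at that percentile. Ucn3 and Hspa5 have a peak away from 0, whereas Nupr1 and Cd81 have most cells at or near 0 and a long tail.

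Of the 19 transcription factors of the β-cell list all had UMIs, and 13 reached 1 UMI per cell, with a median extra CV of 0.280 and 11 of the 13 above the median of all genes. After Mafa, the largest spread was that of Foxa2, a pioneer factor of endoderm (0.46). Insm1, a zinc finger factor of endocrine cells, had the level 4.72 and an extra CV of 0.26. Nkx6-1 had 4.66 and 0.28, Pax6 4.47 and 0.19, Neurod1 3.50 and 0.37. Pdx1 had a level of 1.04 (0.97 to 1.11), was found in 74.1% of the cells, and had an extra CV of 0.28. Of the 13, only Mafa and Foxa2 exceeded the 0.37 of Neurod1.

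Of the 19 genes of glucose sensing and excitability 16 reached 1 UMI per cell, with a median extra CV of 0.351. G6pc2, an islet glucose-6-phosphatase, was at 20.4 in 99.4% of the cells, with an extra CV of 0.36. Atp2a2, the ER calcium pump, was at 11.6 (0.35). Trpm5, a calcium-activated cation channel, had the largest spread of the list (0.55) at a level of 1.70, and Slc2a2 followed. Kcnj11, the pore of the ATP-sensitive potassium channel, was at 0.530 in 56.6% of the cells, while its partner Abcc8 was at 4.56 in 99.1%.

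Among the 16 genes of maturity and receptors the median extra CV over 11 genes was 0.328. Ero1lb, an ER oxidase that helps to form the disulphides of proinsulin, was at 24.1 (0.31). Slc30a8, the granule zinc transporter, was at 10.01 (0.29) and Prlr, the prolactin receptor, at 9.03 (0.34). Adra2a, an adrenergic receptor that restrains secretion, had the largest spread (0.55). Glp1r, the receptor of the incretin GLP-1, had only 12 UMIs over all 468 cells and 14 in the whole Wild-type library, so nothing can be said of it at this depth.

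Granule genes held a median of 3.54% of the non-hormone UMIs of a cell, with 2.48% at the 5th and 5.31% at the 95th percentile. Chga, chromogranin A, was at 100.1 with 58 to 324 UMIs per cell between these percentiles, and Scg2, secretogranin II, at 69.1. Their extra CVs were 0.49 and 0.32. Cpe, which trims basic residues from prohormones, was at 39.0 (0.24) and Pcsk2, a prohormone convertase, at 31.6 (0.26). The largest spread was that of Resp18 (0.61) and Chgb (0.50), both granule proteins. Chga was 0.671 times as high in the cells at or above the median depth as in those below. Exocytosis genes varied less, with a median extra CV of 0.256 over 15 genes and the range 0.11 for Vamp3 to 0.38 for Snap25. Syt13 was at 6.42, Snap25 at 3.30, Napa at 2.96 and Sytl4 at 2.58.

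ER chaperones and genes of the unfolded protein response took a median of 1.69% of the non-hormone UMIs, from 1.11% at the 5th to 2.59% at the 95th percentile, and 19 of the 20 genes reached 1 UMI per cell. Hspa5, the chaperone BiP, was at 42.2 with 26, 67 and 138 UMIs at the 5th, 50th and 95th percentiles. Hsp90b1 was at 21.1, Calr at 14.6 and Manf at 12.9. The median extra CV of the list was 0.314. Creld2 (0.60) and Sdf2l1 (0.53), both ER-stress-induced, had the largest spread, whereas Xbp1, a transcription factor of the response, had 0.10, above only 18.8% of all genes tested, at the level 4.66. The counts hold no information on Xbp1 splicing.

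The integrated stress response, in which translation control raises Atf4 and its targets, had a median extra CV of 0.501 over 11 genes. Nupr1 was at 6.08 with 0, 4 and 37 UMIs at the 5th, 50th and 95th percentiles and an extra CV of 1.136. Atf3 was at 2.88 with 0, 3 and 16 UMIs and 1.09. Atf4 itself was at 5.67 with an extra CV of 0.22, Atf5 at 4.28 (0.50) and Ddit3, which encodes CHOP, at 3.78 (0.43). The Atf4 transcript thus varied less between cells than those of Nupr1, Atf3 and Atf5.

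Immediate early genes, which are switched on within minutes by calcium, growth factors or handling, had the median extra CV of 0.630, and 14 of 14 genes tested lay above the median of all genes. Jund was at 31.1 (0.30), Fos at 24.99 (0.54), Fosb at 16.8 (0.47) and Jun at 12.98 (0.57). Zfp36 (0.93) and Npas4 (0.86) had the largest spread. For 13 of these genes that could also be read in α-cells, the median was 0.575 in β-cells and 0.618 in α-cells. The part that islet dissociation has in these levels was not tested. Cytosolic heat shock genes had a median of 0.339, with Hspa1a (1.37) and Hspa1b (1.33) far above Hspa8 (0.26), the constitutive form, at the level 17.8. Hspa1a and Hspa1b are near-identical copies, so their separate values are uncertain.

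Ribosomal protein genes had the lowest median spread of the lists. They took a median of 9.02% of the non-hormone UMIs, with 7.68% at the 5th and 11.3% at the 95th percentile, and their median extra CV over 80 genes was 0.156, with 6 of the 80 above the median of all genes. For the same 80 genes it was 0.149 in α-cells. Scaled to all UMIs, the median became 0.266. Nuclear genes of oxidative phosphorylation had a median of 0.218 over 22 genes, close to that of all genes, and over the 18 that could be read in α-cells 0.218 in β-cells and 0.080 in α-cells. Over all 1331 genes read in both cell types the medians were 0.214 and 0.195. The α-cell values rest on 132 shallower cells. Among the oxidative phosphorylation genes most were even, such as Cox8a (0.12 at the level 14.5) and Atp5a1 (0.077), but Cox6a2, a tissue-restricted subunit of complex IV, had 0.64. The 13 mitochondrially encoded genes took 11.8% of the non-hormone UMIs at the median and had a median extra CV of 0.238.

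Antioxidant genes and metallothioneins had a median extra CV of 0.352 over 14 genes. Mt1, a metal-binding metallothionein, was at 22.2 with 2, 27.5 and 109 UMIs at the 5th, 50th and 95th percentiles (0.80), and Mt2 at 3.26 (1.09). Gpx3, a secreted glutathione peroxidase, had the largest spread of any named gene (2.56) and was found in 25.4% of the cells. Cat, catalase, had 16 UMIs in all. In sterol synthesis the median was 0.388 over 9 genes, with Hmgcs1 (0.78) the most variable and Acly, which makes cytosolic acetyl-CoA, the highest at 8.41 (0.30).

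Of 18 disallowed genes, which β-cells are known to keep silent, 10 had no UMI over all 468 cells, among them Ldha, which encodes lactate dehydrogenase A, and the hexokinase genes Hk1, Hk2 and Hk3. With 8044473 non-hormone UMIs a count of 0 allows a level of up to 0.00373. Ldha was found in 21 of 23 endothelial cells of the same library and Hk1 in 11 of 23, so that both could be read. The absence was largely shared by the other endocrine cells. Hk2, Hk3, Pdgfra, Zfp36l1, Maf and Fcgrt had 0 UMIs in α-cells and δ-cells too, and Ldha had 1 in α-cells. In α-cells Hk1 had 20 UMIs, Igfbp4 18 and Mgst1 3. The remaining 8 genes had 127 UMIs in all, of which Lmo4 had 76, in 13.5% of the cells and at 0.094 against 0.095 in α-cells. Of 12 immature and progenitor genes, Dlk1 and Sox11 had no UMI, and Neurog3, a factor of endocrine progenitors, had 7. Aldh1a3, reported in dedifferentiating β-cells, had 204 UMIs in 18.8% of the cells. Meg3, a long non-coding RNA also on this list, was at 24.0 in all cells. The 8 mitosis genes, such as Mki67 and Cdk1 had UMIs in 28 cells, but only 2 cells held 10 or more, with 101 and 77, of 222 in all.

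Among reported markers of β-cell subsets, Cd81 was at 1.04 in 41.7% of the cells with 0 UMIs at the median and 8 at the 95th percentile (1.45), Gc, the vitamin D binding protein, at 0.835 in 63.0% (0.88), and Ttr, transthyretin, at 26.9 in all cells (0.57). Cd24a had 136 UMIs in 16.0% of the cells, Cd9 had 27 and Id1 had none. Of the antigen presentation and interferon list, H2-K1 was at 4.995 (0.20), H2-D1 at 2.30 (0.42) and B2m at 0.479, and Isg15, an interferon target, had no UMI.

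Across all genes, 166 of 3153 (5.26%) had an extra CV above 0.5 and 19 above 1. After Gpx3, and leaving out ribosomal, mitochondrial and unnamed genes, the largest were Tubb5, a tubulin (1.93), Pdyn, prodynorphin (1.83), Pappa2, a protease of IGF binding proteins (1.74), Tcim (1.54), Cd81 (1.45), Hspa1a, Hspa1b, Rgs4, a regulator of G protein signalling (1.30), H1fx, a linker histone (1.17), Nupr1, Dapl1 (1.13), Cldn4, a tight junction protein (1.10), Mt2 and Atf3. Pdyn was found in 40.8% of the cells with 9 UMIs at the 95th percentile, and Pappa2 in 39.1% with 7. With the highest cell of each gene left out, Tubb5 fell to 1.26, whereas Gpx3 stayed at 2.49, Pdyn at 1.70 and Pappa2 at 1.66. In α-cells Cd81 had 0.081 and Gpx3 0.40, both at higher levels there. At the even end, 403 genes that could be named had an estimate of 0, among them Pfdn5 at a level of 4.64 and Ywhae at 4.32. Of genes above 0 the smallest values were those of Bag1, Gspt1, Snrnp48, Rcbtb1, Eif4e, Fbxl16, Ppm1l, Spop, Mrpl30 and Gtf2a2, from 0.0067 to 0.026.

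**Figure D3:**
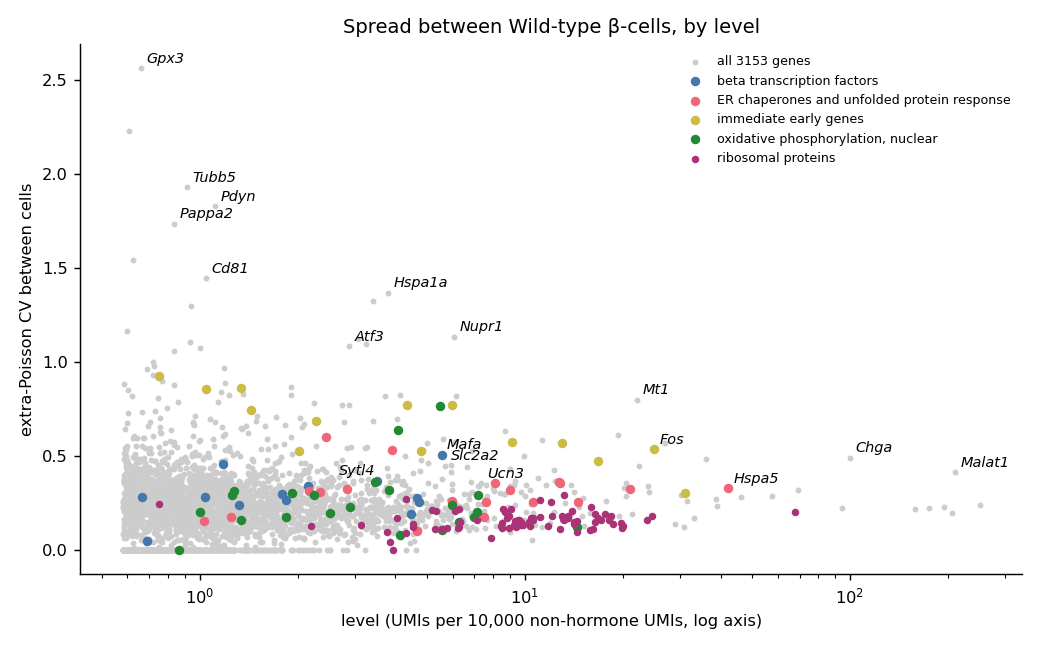
Extra-Poisson CV between Wild-type β-cells against level (UMIs per 10000 non-hormone UMIs, log axis), 1 point per gene for 3153 genes with at least 1 UMI per cell. Ribosomal protein genes lie low, with a median of 0.156, immediate early genes high, with a median of 0.630, and Gpx3 at the top with 2.56.

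A few β-cells held little Ins1 relative to Ins2. The ratio of Ins2 to Ins1 UMIs had a median of 2.32 and lay between 1.86 and 3.32 from the 5th to the 95th percentile, but 11 of 468 cells (2.35%, 1.18 to 4.17) exceeded 5, a limit chosen after the values were seen. The highest were 182, 103, 67.6 and 17.9. The lowest ratio above the limit was 5.63 and the highest below it 4.90, and 14 cells exceeded 4 and 6 exceeded 10. These 11 cells had insulin shares of 40.1% to 60.6%, a median of 10990 non-hormone UMIs against 14790 in the others and a median mitochondrial percentage of 4.01% against 3.69%, and none was called a doublet. Since the cells were picked for low Ins1 among these data, what follows is a description. In the Tg7 library 93.5% of the cells chosen by the same rule exceeded this ratio, and whether the 11 cells came from the Wild-type islets was not tested.

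In these 11 cells genes of the mature β-cell were low, and so were some stress and immediate early genes. Mafa had 4 UMIs in all 11 cells, at most 1 per cell, which is a level of 0.303 against 5.63 in the other 457 cells, a ratio of 0.054 (0.015 to 0.138). Slc2a2 had 6 UMIs, at 0.454 against 5.79. Trpm5 had 1 UMI, at 0.076 against 1.73, and Sytl4 6 UMIs, at 0.454 against 2.62. Ucn3 was at 2.35 against 7.44 and G6pc2 at 3.40 against 20.7. Cox6a2, Prss53 and Tmem215 were among the 10 genes with the lowest ratio of 1177 genes compared. So were the immediate early gene Dusp1 (0.171) and the stress gene Nupr1 (0.184). Fos was at 8.17 against 25.3 (0.323, 0.265 to 0.391), whereas Hspa5 (1.18) and Mt1 (1.24) had ratios above 1. Neurod1 (0.688, 0.470 to 0.973), Pax6 (0.708, 0.509 to 0.959), Prlr (0.373) and Ero1lb (0.269) also had ratios below 1 beyond their intervals. Some other genes were near the level of the remaining cells. Nkx6-1 was at 4.39 against 4.66, Insm1 at 4.77 against 4.72 and Ttr at 28.0 against 26.9. Iapp, at 1364 against 1489, had a ratio of 0.916, which is also below 1 beyond its interval (0.903 to 0.930). For Pdx1 the ratio was 0.505 with an interval of 0.202 to 1.04, on 7 UMIs.

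The genes with the highest ratio were Gpx3, Aldh1a3 and Spp1. Gpx3 was at 8.78 against 0.526 (16.7 times, 13.5 to 20.6) with UMIs in 10 of the 11 cells. Aldh1a3 was at 3.33 against 0.202 (16.5 times, 11.5 to 23.1) in 6 of the 11. All 62 Spp1 UMIs lay in 1 of the 11 cells. Cd81 was at 6.20 against 0.957 in 10 of the 11 cells, Gc at 3.03 against 0.799 and Chga at 263 against 97.4. tdTomato was at 0.303 on 4 UMIs against 0.476, which do not differ beyond counting error. Leaving the 11 cells out changed the extra CV of Gpx3 to 2.57 and that of Mafa to 0.49.

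**Figure D4:**
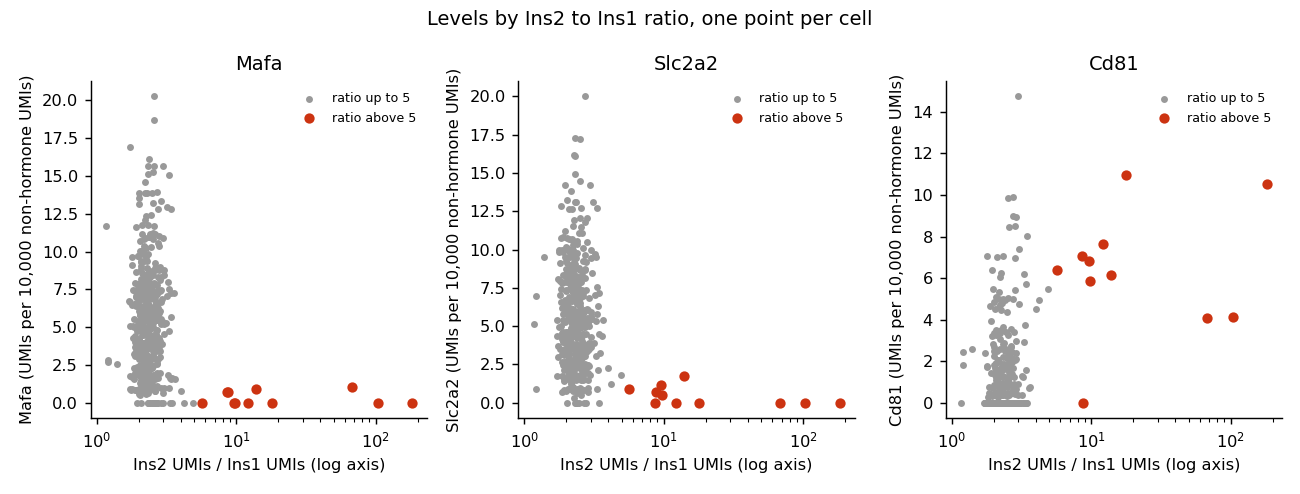
Levels of Mafa, Slc2a2 and Cd81 (UMIs per 10000 non-hormone UMIs) against the ratio of Ins2 to Ins1 UMIs (log axis), 1 point per Wild-type β-cell. The 11 cells with a ratio above 5, in red, have at most 1 Mafa UMI each, and 10 of them have Cd81 UMIs.

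How the genes of the β-cell varied together depended on the scale. To keep counting error out, the UMIs of each cell were split at random into 2 parts, and a list or gene in the first part was correlated with another in the second (Spearman rho over 468 cells, averaged over both directions). This was done between the lists, insulin, Mafa, Ucn3, Slc2a2 and Sytl4. The single genes named below for their highest or lowest rho have a plain Spearman rho without this split. A value against itself shows how much is signal. It was 0.93 for granule genes, 0.92 for immediate early genes, 0.90 for ribosomal protein genes, 0.87 for ER chaperones, 0.63 for Mafa, 0.53 for Ucn3, 0.50 for Slc2a2 and only 0.20 for Sytl4. The cells share a library, a depth range and a composition, and a rho here is a description.

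Genes of mature function had positive rho values on both scales. Scaled to all UMIs, however, most pairs of lists without insulin were positive, so a positive sign on that scale adds little. The maturity list had 0.49 there with mitochondrially encoded genes and 0.39 with immediate early genes. Relative to non-hormone UMIs these values were 0.078 and 0.097. Mafa had a rho of 0.37 with the maturity and receptor list when scaled to non-hormone UMIs and 0.53 when scaled to all UMIs. The glucose sensing and the maturity lists had 0.39 and 0.64, and Sytl4 and the maturity list 0.26 and 0.40. Mafa and Ucn3 had a rho of only 0.16 and 0.26. Mafa went the other way from the granule list at -0.32 and -0.15, and Chga was the gene with the lowest rho with Mafa (-0.31 and -0.25). Ttc28 (0.39), Ccnd2 (0.33), Prlr (0.33), Papss2 (0.32) and Ero1lb (0.32) were those with the highest. With depth and mitochondrial percentage removed from the ranks, Mafa had 0.31 with Ttc28, 0.30 with Ero1lb, 0.24 with Prlr, 0.22 with Ccnd2 and 0.21 with Papss2. Mafa itself had a rho of 0.30 with the non-hormone UMIs of a cell.

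Ucn3 had its highest rho with Ftl1, ferritin light chain (0.31), Ppia (0.30), Zdhhc2 (0.28), Selenot (0.28) and Creg1 (0.27), and its lowest with Tmem27 (-0.30), Malat1 (-0.28), Jund (-0.25), Dnajb9 (-0.25) and Tbrg1 (-0.24). Scaled to all UMIs these highest 5 were 0.45, 0.34, 0.46, 0.43 and 0.31, and the lowest 5 -0.14, -0.11, -0.019, -0.17 and -0.16. The rho of Ucn3 with the mitochondrially encoded genes was 0.34, and 0.43 scaled to all UMIs. Sytl4 had its highest with G6pc2 (0.31), Prlr (0.29), Ero1lb (0.29), Papss2 (0.28) and Ccnd2 (0.25), and its lowest with Resp18 (-0.28). With depth and mitochondrial percentage removed from the ranks, these were 0.25, 0.21, 0.27, 0.19, 0.15 and -0.17. Scaled to all UMIs they were 0.45, 0.42, 0.42, 0.42, 0.40 and -0.33. Prlr, Papss2, Ero1lb and Ccnd2 were thus among the 5 highest for Mafa and for Sytl4.

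Insulin transcripts and the secretory lists gave no direction that holds on both scales. Insulin had a rho of 0.58 with the granule list relative to non-hormone UMIs but -0.30 relative to all UMIs, and for the ER chaperone list the values were 0.28 and -0.42. ER chaperones and mitochondrially encoded genes had -0.46 and 0.083, and ribosomal protein genes and immediate early genes -0.30 and 0.34. Insulin makes up most of all UMIs, so on that scale every other list has a negative rho with it. On the non-hormone scale, Ins2 had its highest rho with Ubb, a ubiquitin gene (0.69), Dad1 (0.55), Ssr4 (0.53), Manf (0.51) and Ddost (0.50), with 0.44, 0.051, 0.025, 0.064 and 0.17 scaled to all UMIs. Of these Dad1 and Ddost serve in N-glycosylation and Ssr4 in ER translocation. The ER chaperone list had its highest with Ostc (0.44), Fkbp11 (0.43), Selenok, Spcs1 and Sec61g, and its lowest with Zdhhc2 (-0.43), Ftl1 (-0.40), Atf5 (-0.36), Camk2n1 (-0.36) and Selenow (-0.32). Scaled to all UMIs these 5 lay between -0.0072 and 0.14, with 4 of them above 0. Ribosomal protein genes had their highest with the elongation factors Eef1a1 (0.56) and Eef2 (0.42), and with Tpt1, Fau and Cpe, and their lowest with Fos (-0.36), Gadd45g (-0.35), Dusp1 (-0.34), Jun (-0.30) and Junb (-0.30), of which only Gadd45g stayed negative when scaled to all UMIs (-0.20).

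**Figure D5:**
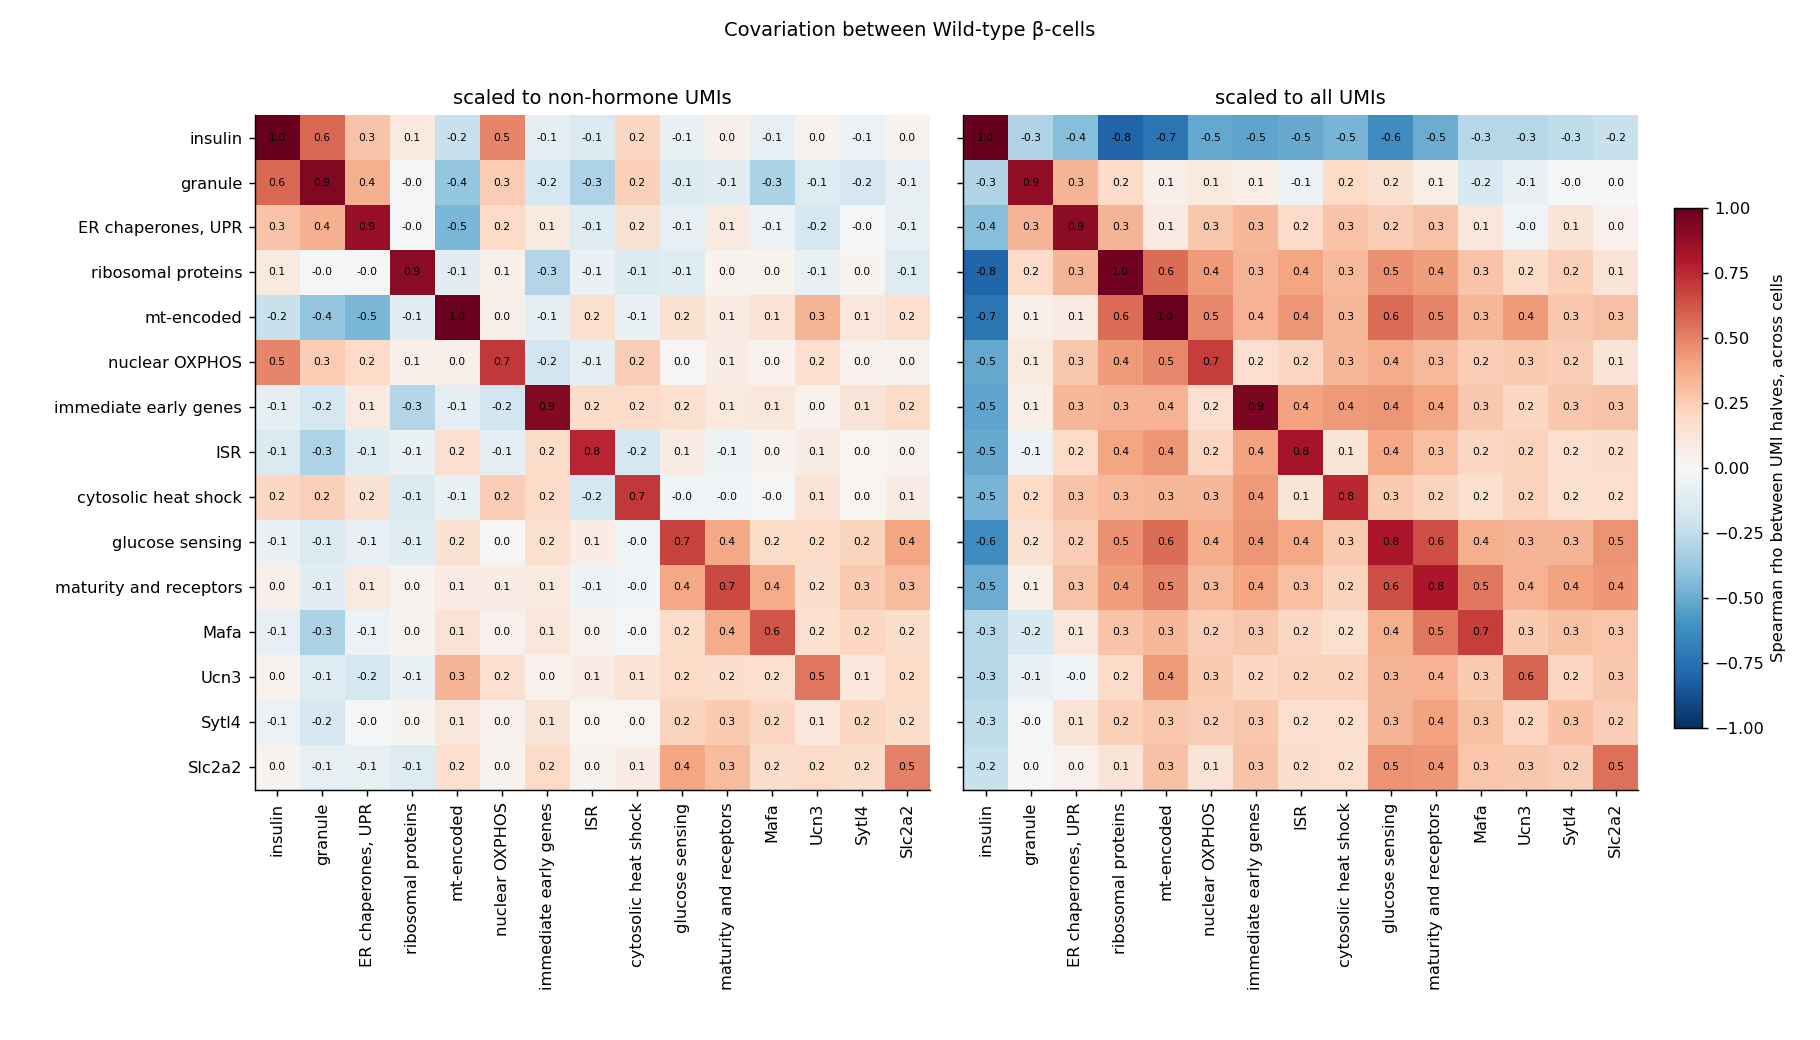
Spearman rho across 468 Wild-type β-cells between gene lists and single genes, with the row taken from 1 random part of the UMIs of each cell and the column from the other, on levels scaled to non-hormone UMIs (left) and to all UMIs (right). Mafa and the maturity list are positive on both scales (0.37 and 0.53), but on the right most pairs without insulin are positive. Insulin and the granule list change sign (0.58 and -0.30).

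The main axes of variation over 3141 genes, leaving out hormone and mitochondrially encoded genes, each held a small part of the variance: 4.80%, 2.89% and 2.53%. The first ran from Chga, Ubb, Resp18, Ttr, Manf, Pcsk1n and Hspa5 at the low end to Fosb, Mt1, Ccnd2, Atp2a2, Zdhhc2, Egr1, Camk2n1 and Atf5 at the high end. It had a rho of -0.70 with the insulin share, 0.69 with the mitochondrial percentage and 0.44 with the non-hormone UMIs. These axes were computed on the non-hormone scale only, and the rho of insulin with granule and ER chaperone genes reverses when scaled to all UMIs. The second had Malat1, a nuclear RNA, with Gpx3, Jund, Meg3, Chga, Hspa5, Krt8 and Tmem27 at the low end and Mt1, Ftl1, Fos, Nupr1, Hspa1a, Scg2, Cd63 and Gadd45g at the high end, with rho values of 0.18 to depth and 0.25 to mitochondrial percentage. The third had Malat1, Mt1, Chga, Mt2, Jun, Fos and Actg1 low and Cpe, Gng12, Ero1lb, Scg2, Pdyn, Pappa2, Ssr4 and Pcsk2 high, with a rho of 0.27 to depth.

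β-cells were set against 132 α-cells (at least 20% Gcg) and 23 δ-cells (at least 5% Sst) of the same library, to show which genes other than hormones set them apart. Of 8555 genes with at least 100 UMIs over both groups, 1659 were at least 2-fold higher in β-cells than in α-cells (19.4%) and 373 at least 2-fold lower (4.36%). Scaled to all UMIs the counts were 576 and 2027. The median ratio of all genes was 1.24 on the first scale and 0.691 on the second, a shift of -0.84 on the log2 scale, so list medians are read against it. Against δ-cells 1408 of 8227 genes were higher (17.1%) and 686 lower (8.34%), and 194 and 5084 when scaled to all UMIs. The minimum of 100 UMIs over both groups is met mostly through the 468 β-cells. With a minimum of 20 the counts against δ-cells were 1408 higher and 2461 lower. The 5084 and the 2461 include genes without any UMI in δ-cells, for which 3 UMIs stood in. With few UMIs in β-cells, such a gene counts as lower by construction. How many genes were truly lower than in δ-cells cannot be read from the 5084 or the 2461.

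The genes with the highest ratio to α-cells were Slc2a2 at 5.70 against 0.00788 (724 times, 130 to 28586), G6pc2 at 20.4 against 0.0394 (518 times, 222 to 1596), Ucn3 (467 times), Mafa (352 times), Frzb, a secreted Wnt antagonist (343 times), Cox6a2 (259 times), Nupr1 (257 times), Prlr (229 times), Bace2, a protease (210 times) and Fam151a (185 times). Each had 5 UMIs or fewer in α-cells, so the upper limits are wide. Sytl4 had no UMI in α-cells and was at least 109-fold higher in β-cells. Against δ-cells the highest were Ero1lb (177 times), Slc30a8 (147 times), G6pc2 (at least 99.8-fold), Bace2 (72.7 times) and Tmem215 (48.6 times). Mafa, Ucn3 and Slc2a2 had no UMI in δ-cells.

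The genes with the lowest ratio to α-cells had few UMIs in β-cells. Rcn3 had 1 UMI against 138, Higd1a 5 against 552, Eef1a2 2 against 218, Irx1 2 against 143 and Ndst4 4 against 152. Basp1, Slc25a33 and Upk3a were also among the 10 lowest ratios. Against δ-cells the lowest ratios were those of Rbp4 (0.0025), Cd24a (0.015), Hspb1 (0.017), Tspan8 (0.035) and Klhdc8b (0.046).

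Of the lists of β-cell function, stress and metabolism, which leave out the cell type markers, maturity and receptors had the median ratio furthest above that of all genes. It was 7.07, and 12 of 15 genes were 2-fold higher and 1 lower, beside 19.4% of all genes higher. ER chaperones were next with a median of 2.72, 15 of 20 higher and 0 lower. Hspa5 was 1.84 times as high in β-cells (1.77 to 1.91), whereas Wfs1 was 9.30 times, Sdf2l1 8.72 times and Edem1, which sends misfolded proteins to degradation, 8.20 times as high. The integrated stress response had a median of 2.62 with 10 of 15 higher, led by Nupr1 and Atf5 (25.9 times), while Atf3 was lower (0.216). Transcription factors had 2.002 with 10 of 19 higher, such as Pdx1 (66.0 times) and Nkx6-1 (21.1 times). Granule genes had 0.870 with 4 higher and 4 lower. Scg2 was 9.24 times as high and Pcsk1, the convertase of proinsulin, 144 times, whereas Pcsk2 (0.492), Pcsk1n (0.313) and Resp18 (0.233) were lower.

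Ribosomal protein genes had a median ratio of 0.530 on the non-hormone scale, 0.296 scaled to all UMIs and 0.466 with TMM factors, with 29 of 82 at least 2-fold lower, beside 4.36% of all genes, and 0 higher. This is 0.428 times the median of all genes. Immediate early genes (1.33), nuclear oxidative phosphorylation genes (1.22), antioxidant genes (1.18) and sterol synthesis genes (1.15) had between 0.930 and 1.08 times the median of all genes. Cytosolic heat shock genes had 0.951, with 1 of 10 higher and 1 lower. α-cells held fewer UMIs, with a median of 8897 non-hormone UMIs, and their counts of β-cell genes include RNA from outside the cell to an extent that was not tested.

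The same rule applied to the Tg7 library gave 245 of 1006 filtered cells (24.4%, 21.7 to 27.1), with a median insulin share of 37.8% against 64.2% in Wild-type. Because the rule asks for 30% insulin, it takes different parts of the insulin distributions of both libraries, and levels are set side by side only. Mafa was at 5.55 in Wild-type and 0.304 in Tg7, Ucn3 at 7.36 and 0.465, Sytl4 at 2.58 and 0.215, Slc2a2 at 5.70 and 0.529, Nkx6-1 at 4.66 and 1.85, and Chga at 100.1 and 91.3. The median ratio of Ins2 to Ins1 was 2.32 in Wild-type and 17.8 in Tg7, where 93.5% of the cells exceeded the ratio of 5 that 2.35% of the Wild-type cells exceeded. Genotype and library cannot be told apart with 1 library each.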

How the data were processed

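UMI counts, 1 filtered matrix for each library, were deposited by the authors. Per the submitters' processing notes, bcl2fastq 2.17.1.14, Cell Ranger 3.0.2 with STAR and the build mm10 were used. No source names the annotation. The deposited counts were used unchanged, over 31054 features. Where 2 features share a symbol, the lower Ensembl ID was read. The members, gene lists and tests were chosen with earlier results of these data known.

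Counts were summed or scaled with Python 3.11.15, numpy 2.4.6 and scipy 1.17.1. Levels carry exact Poisson, shares exact Clopper-Pearson and ratios conditional exact binomial intervals. Where a group had 0 UMIs, 3 UMIs over the group stood in for it. Endothelial cells were those with at least 10 UMIs of 5 markers and macrophages those with at least 20 of 6. The spread estimate and the ratios were tested on simulated data. Doublets were called with Scrublet (scanpy 1.11.5, at an assumed 0.8% per 1000 barcodes), kept in, and left out as an alternative; it called 10 of 855 barcodes, 3 of them members. The study removed doublets with another caller, and no deposited cell types were used.

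Named genes were the markers with Mafa, Ucn3 and Sytl4; per list up to 4 of the highest level and 2 of the largest spread; the 15 largest and 10 smallest spreads; the 10 highest and lowest ratios to α-cells and 5 to δ-cells; 5 highest and lowest rho; and 8 genes at each end of an axis. Mitochondrial, ribosomal and unnamed genes were left out of ranked picks, and some genes that the rule picks are not reported here. Genes named beyond this rule, among them Krt7, C1qa, Glp1r, Xbp1, Ldha, Pdx1, Kcnj11, Abcc8, Nkx6-1 in ratios and those of the Ins1-poor cells, were chosen after their values were seen.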

Additional observations from a re-analysis of the deposited data

How the results depend on the processing

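Of 88 values of the main results under alternative settings, 76 stayed within 1.5 times (counts and CVs), 0.1 (rho) or the counting interval (shares) of the value reported. Some of the 76 could hardly move. A minimum of 20 UMIs leaves the extra CVs of Mafa, Ucn3 and Sytl4 unchanged by construction. The stricter barcode filter given below kept 465 of 468 members, leaving out doublet calls 465, and insulin at 20% gave 471. The selection gave 395 Tg7 cells with insulin at 20% and 91 at 40%, whereas the number of Wild-type members stayed within those bounds. The thinned share of cells with Mafa was 63.7% under a stricter barcode filter (a minimum of 5000 UMIs, mitochondrial share up to 10%). With the doublet calls left out it was 60.1%. Both settings left out few cells and drew the thinned UMIs anew, so these shares also moved with the random draw. When thinned to 1000 UMIs the share was 35.8%, by construction of the thinner draw. The rho of insulin with granule genes reversed to -0.30 when scaled to all UMIs and was 0.68 in the cells at or above the median depth. Scaled to all UMIs, 3 further rho values also reversed, those of ER chaperones with mitochondrially encoded genes (0.083), ribosomal protein with immediate early genes (0.34) and insulin with ER chaperones (-0.42). On that scale 576 genes were 2-fold higher and 2027 lower in β-cells than in α-cells, and 194 and 5084 against δ-cells. With a minimum of 20 UMIs, 782 genes were lower than in α-cells and 2461 than in δ-cells. The 2461 and the 5084 include genes with 0 UMIs in δ-cells, for which 3 UMIs stood in. With few UMIs in β-cells, such a gene counts as lower by construction. Otherwise the cause of the changes was not tested beyond the change of denominator. Leaving out the highest cell of each gene or the 11 cells poor in Ins1 was added after the data were seen. No paired analysis was possible because each group is 1 library.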
